A study of Drosophila melanogaster with 4 samples.

Results

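The 43 genes described here encode proteins of the nucleolus, of ribosome assembly and of the RNA exosome, and they were chosen by gene symbol because genes of this kind are known targets of Myc in flies. All 43 were found among the 13909 genes of the series, and all 43 had enough counts to be tested. They were compared between S2R+ cells that are homozygous for a CRISPR deletion of the intronic enhancer of *Notch* and unedited wild-type S2R+ cells, with 2 libraries of total RNA for each genotype. S2R+ is a tetraploid line grown from late *Drosophila* embryos. The enhancer mutant is 1 isolated clone grown up after puromycin selection and dilution, and a clone without the deletion was not analysed here, so the deletion and the history of the clone cannot be told apart. The labels do not say that the libraries of a genotype came from separate cultures, so p-values measure only the spread between libraries.

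Ribosomes are assembled around ribosomal RNA that RNA polymerase I transcribes in the nucleolus. Small nucleolar ribonucleoprotein particles (snoRNPs) then guide methylation and pseudouridylation of that RNA, helicases, GTPases and kinases fold it together with ribosomal proteins into the small and the large subunit, and the exosome trims and degrades its spacers. In flies Myc raises the transcription of many of these genes, and with it the size of the nucleolus and the growth of the cell.

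The question here was whether these genes were expressed at other levels in a mutant clone in which *Myc* itself was lower. Estimated counts summed to 29605002 and 24880286 in the enhancer mutant libraries and to 19410313 and 16240543 in the wild-type libraries. Counts were scaled with TMM factors, which set the typical gene equal between libraries, and are given as CPM, the count of a gene scaled to a common library total. To count as differentially expressed, a gene needed an adjusted p below 0.05 together with a log2 fold change of 0.5 or more in either direction, by the quasi-likelihood test of edgeR with p-values adjusted by Benjamini-Hochberg over all 8182 genes tested. Below, "fell" and "rose" are used of genes with an adjusted p below 0.05, and log2 fold changes are of enhancer mutant over wild-type. Permuting 2 against 2 libraries exactly gives a single gene a two-sided p of 0.333 at best, so these p-values rest on a spread shared across genes.

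*Notch* (gene symbol *N*), the gene whose enhancer was deleted, had 38.1 and 35.3 CPM in the enhancer mutant, against 160.1 and 126.0 CPM in wild-type, a log2 fold change of -1.96. Hemocyte markers, which S2R+ cells are expected to carry, summed to 238 and 210 TPM in the enhancer mutant and 228 and 214 TPM in wild-type, although *NimC1* and *eater* lay at or near 0 in all 4 libraries. *fz*, a receptor whose presence separates S2R+ from S2 cells, had 0.381 and 0.446 TPM in the enhancer mutant and 2.08 and 2.18 TPM in wild-type, low in both genotypes and lower in the enhancer mutant. Summed muscle and ovarian somatic markers were at most 0.615 TPM in any library. Neural markers summed to 8.30 and 8.29 TPM in the enhancer mutant and 15.0 and 12.2 TPM in wild-type, mostly from *elav*. Germline markers summed to 0.804 and 0.556 TPM in the enhancer mutant and 7.39 and 8.35 TPM in wild-type, mostly from *bam*. The part of these cell type markers in the results was not tested. In bulk RNA, fewer cells of a type and less RNA per cell cannot be told apart.

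*Myc* had 193.5 and 195.2 CPM in the enhancer mutant, against 577.8 and 433.8 CPM in wild-type. The enhancer mutant libraries lay far below the wild-type libraries, with a log2 fold change of -1.38 (SE 0.129). *Mnt*, which competes with Myc for their shared partner Max and represses its targets, had 68.7 and 74.1 CPM in the enhancer mutant, against 171.1 and 135.5 CPM in wild-type, a log2 fold change of -1.10. *Max* itself had 68.7 and 80.6 CPM in the enhancer mutant, against 58.3 and 58.1 CPM in wild-type, and rose by 0.36 on the log2 scale (adjusted p = 0.0146, edgeR quasi-likelihood test, Benjamini-Hochberg adjusted), short of the fold threshold. The related factors *Mondo* (log2 fold change 0.09) and *bigmax* (0.03) did not pass the test. Levels of RNA were thus lower in the enhancer mutant for both an activator and a repressor of the same targets.

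Against these changes of *Myc* and *Mnt*, the nucleolar and ribosome biogenesis genes moved little. Of the 43 genes, 1 was differentially expressed with a lower level in the enhancer mutant, and 0 were higher, in a comparison in which 27.9% of all tested genes were called, 15.3% as lower and 12.6% as higher. Without the fold threshold, 15 genes fell and 2 rose, while 26 had an adjusted p that missed the threshold. As shares of the 43 genes, 34.9% fell and 4.65% rose, where 24.2% of all tested genes fell and 24.5% rose by the same rule. Among the 5653 genes with a mean log2 CPM at or above that of the lowest of the 43, 20% fell and 29.6% rose. With the fold threshold, 7.84% of those 5653 genes were called lower and 13.3% higher. The 15 falls became 3 without enhancer mutant replicate 1, 3 without enhancer mutant replicate 2 and 8 without wild-type replicate 2, and the 2 rises became 0 without either enhancer mutant library and 1 without wild-type replicate 1. With all 4 libraries, the falls ran between 15.5% and 29.4% of the wild-type level. The 1 called gene, *l(2)k09022*, was not called by DESeq2, nor without a filter on low counts, without enhancer mutant replicate 2 or without wild-type replicate 1.

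The fold changes were narrowly spread and lay mostly below 0. Quartiles of the 43 log2 fold changes were -0.33 and -0.04, against -0.34 and 0.31 for all tested genes. For the 5653 genes defined above, the quartiles were -0.20 and 0.32. Across the 43 genes, log2 fold changes ran between -0.50 and 0.33 with a median of -0.14, beside -0.0037 for all tested genes together and 0.06 for those 5653 genes. The change was below 0 for 34 genes (79.1%), against 50.3% of all tested genes. The CPM of the genotypes did not overlap for 33 genes, with the enhancer mutant lower for 26 (60.5%) and higher for 7 (16.3%), beside 37.9% and 37.7% of all tested genes. The 95% confidence interval of the fold change lay within a 1.5-fold change in either direction for 34 genes, reached a 1.5-fold fall for 9 and reached a 1.5-fold rise or a 2-fold fall for 0. The lowest bound was -0.76 on the log2 scale, for *l(2)k09022*, and the highest 0.54, for *ppan*.

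**Figure D1:**
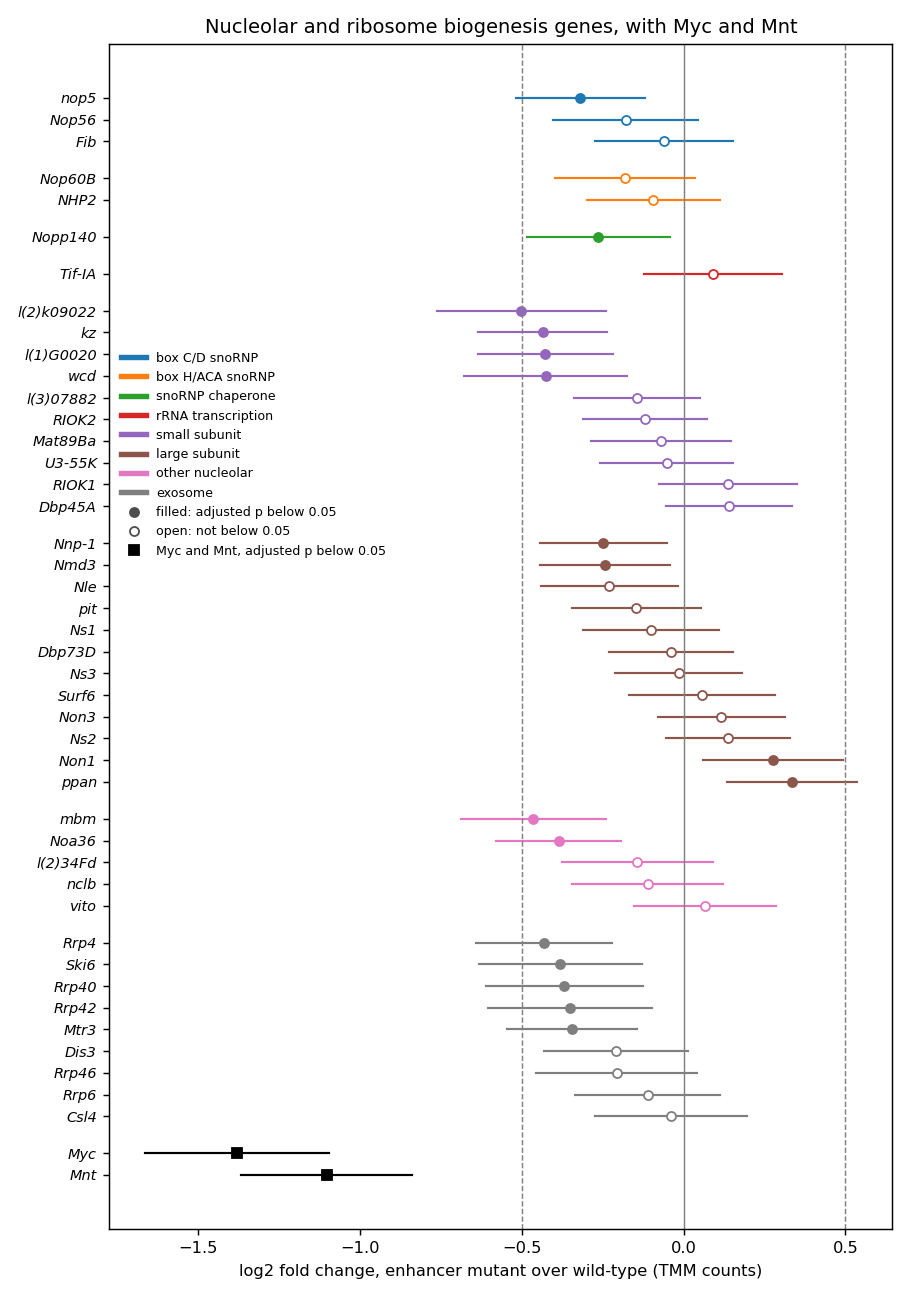
Log2 fold change of enhancer mutant over wild-type for each of the 43 genes, grouped by role, with *Myc* and *Mnt* (black squares) at the bottom. Lines are 95% confidence intervals, filled points have an adjusted p below 0.05 by edgeR, and dashed lines mark the fold threshold of 0.5 either way. Of the 43 points, 1 lies past a dashed line, while *Myc* and *Mnt* lie at -1.38 and -1.10.

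Of the 6 genes for the snoRNPs and their chaperone, which act early in the pathway, 2 fell and 0 rose. The shares over all tested genes were 24.2% and 24.5%. Among the 3 core proteins of the box C/D snoRNP, which methylates ribosomal RNA, *nop5* fell and the other two did not pass the test. *nop5* (FBgn0026196, chromosome 2L, 6916753 to 6918743, dm6) had 132.6 and 136.0 CPM in the enhancer mutant, against 162.4 and 172.9 CPM in wild-type. The genotypes did not overlap, and the log2 fold change was -0.32 (SE 0.0900, adjusted p = 0.0135, edgeR quasi-likelihood test, Benjamini-Hochberg adjusted). *Nop56* (FBgn0038964, 3R, 22419095 to 22421068), its paralog and partner in the particle, had 421.0 and 446.2 CPM in the enhancer mutant, against 459.3 and 522.6 CPM in wild-type. Its libraries did not overlap either, but the wild-type libraries were wide apart, and the change of -0.18 did not pass the test. *Fib* (FBgn0003062, 2R, 23072909 to 23074725), the methyltransferase fibrillarin, had 199.5 and 228.7 CPM in the enhancer mutant, against 223.7 and 223.1 CPM in wild-type. The enhancer mutant libraries of *Fib* lay on either side of the wild-type libraries, and the 95% interval of its log2 fold change ran from -0.27 to 0.15.

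Neither of the 2 genes of the box H/ACA snoRNP, which converts uridine to pseudouridine, passed the test on its total count. *Nop60B*, the pseudouridine synthase related to human dyskerin, had 303.1 and 316.9 CPM in the enhancer mutant, against 330.1 and 373.4 CPM in wild-type, and *NHP2*, a core protein, had 73.3 and 78.0 CPM in the enhancer mutant, against 81.6 and 79.9 CPM in wild-type. Both genes had their enhancer mutant libraries below their wild-type libraries, with log2 fold changes of -0.18 and -0.09. *Nopp140*, a phosphoprotein that chaperones both kinds of snoRNP, fell, with 331.0 and 328.5 CPM in the enhancer mutant, against 423.8 and 368.2 CPM in wild-type. Its adjusted p lay close to the threshold (0.0484, edgeR quasi-likelihood test, Benjamini-Hochberg adjusted), and wild-type replicate 1 held most of the distance. *Tif-IA*, the factor that recruits RNA polymerase I to ribosomal DNA, had 328.3 and 327.9 CPM in the enhancer mutant, against 290.0 and 326.4 CPM in wild-type. The enhancer mutant libraries of *Tif-IA* lay just above both wild-type libraries, and its change of 0.09 did not pass the test.

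*Nop60B* also stood out from the other genes by its transcripts. Of the 43 genes, 28 had 1 annotated transcript in the quantification, and 12 of the other 15 could be compared. Each of the 12 had a transcript that reached a share of 5% in a library and left 5% or more to the others in a library. The shares did not overlap between genotypes for 4 of the 12, *Nop60B*, *Dis3*, *Non1* and *pit*, and lay at least 10 percentage points apart for 1, *Nop60B*. Among all 4009 tested genes that could be compared in this way, those shares were 61.4% and 12.6%, so such a gap is common in these libraries. The transcript *Nop60B-RB* held 17.4% and 14.2% of the estimated counts of the gene in the enhancer mutant, against 33.6% and 32.6% in wild-type. In level, *Nop60B-RB* had 52.8 and 45.2 CPM in the enhancer mutant, against 110.9 and 121.9 CPM in wild-type, while *Nop60B-RA* had 244.5 and 265.4 CPM in the enhancer mutant, against 213.1 and 245.9 CPM in wild-type. The long transcript was thus clearly lower in both enhancer mutant libraries, and the short one overlapped between genotypes. Salmon divides reads between such overlapping transcripts, and the error of that division was not part of the files used here, so these shares were not tested.

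The 2 transcripts of *Nop60B* encode the same 1524 bp of coding sequence and differ in what follows it. *Nop60B-RA* has 6 exons and ends at 24177253 on chromosome 2R, while *Nop60B-RB* has 13 exons, 7 of them noncoding exons that start at 24184723, and ends at 24186343. An annotated copy of the transposable element 412 spans 24177291 to 24184718 on the opposite strand, between the end of *Nop60B-RA* and those exons. It overlaps an exon of *Nop60B-RB*, and the part of sequence of this element in the estimates of that transcript was not tested. The introns between the noncoding exons hold 6 annotated snoRNA genes on the same strand, and 1 more lies in an intron that both transcripts share. *Fib*, *nop5* and *pit* each hold 1 nested snoRNA gene. In all, 4 of the 43 genes (9.3%) host a snoRNA gene, beside 0.978% of all tested genes. The snoRNAs themselves were not among the transcripts quantified.

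**Figure D2:**
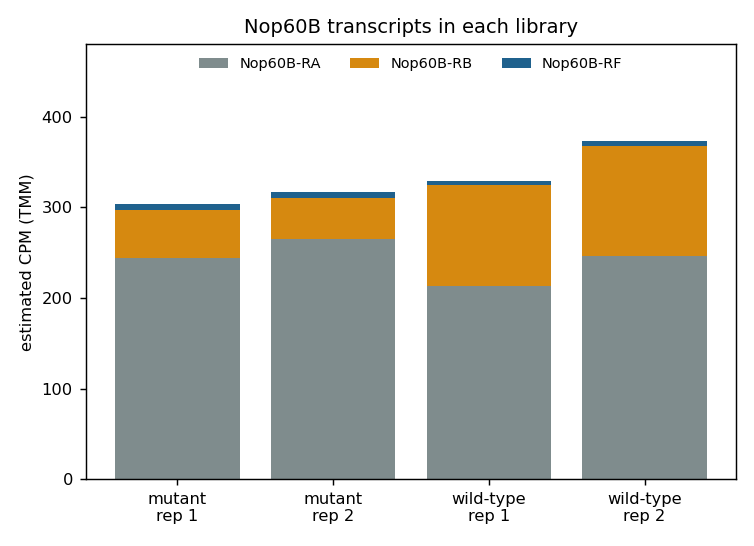
Estimated CPM of 3 transcripts of *Nop60B* in each library, stacked, with enhancer mutant replicates on the left and wild-type replicates on the right. *Nop60B-RB*, the transcript with the 7 noncoding exons that surround snoRNA genes, had 52.8 and 45.2 CPM in the enhancer mutant and 110.9 and 121.9 CPM in wild-type.

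For the small subunit, 4 of 10 assembly factors fell and 0 rose, with a median log2 fold change of -0.13. Of all tested genes, 24.2% fell and 24.5% rose. *l(2)k09022* (FBgn0086451, 2L, 6854142 to 6860849), related to the human and yeast processome protein HEATR1 or Utp10, had 68.9 and 57.7 CPM in the enhancer mutant, against 97.2 and 82.1 CPM in wild-type. The genotypes did not overlap, although replicates of each genotype were spread, and the log2 fold change was -0.50 (SE 0.118, adjusted p = 0.00543, edgeR quasi-likelihood test, Benjamini-Hochberg adjusted). *kz*, a helicase related to human DHX37, had 54.2 and 53.3 CPM in the enhancer mutant, against 70.7 and 74.9 CPM in wild-type. *l(1)G0020*, related to the RNA acetyltransferase NAT10, had 58.3 and 56.4 CPM in the enhancer mutant, against 73.7 and 80.7 CPM in wild-type. For *kz* and *l(1)G0020* the replicates lay close together and the genotypes far apart, with log2 fold changes of -0.44 and -0.43. *wcd*, related to yeast Utp18, fell by 0.43 on the log2 scale, with 42.0 and 40.4 CPM in the enhancer mutant, against 49.0 and 61.9 CPM in wild-type.

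The remaining 6 small subunit factors had log2 fold changes between -0.14 and 0.14 and did not pass the test. They were FBgn0010926 (related to yeast Nop14), *Mat89Ba* (human NOL6), *U3-55K* (a protein of the U3 snoRNP), the kinases *RIOK1* and *RIOK2*, which act on late precursors in the cytoplasm, and the helicase *Dbp45A*. The kinases stood on either side of 0. *RIOK1* had 28.1 and 29.1 CPM in the enhancer mutant, against 26.6 and 25.4 CPM in wild-type, and *RIOK2* had 52.7 and 53.8 CPM in the enhancer mutant, against 57.2 and 58.4 CPM in wild-type. Each of the kinases kept its genotypes apart, but at log2 fold changes of 0.14 for *RIOK1* and -0.12 for *RIOK2* neither passed the test.

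The large subunit factors were the most evenly divided, with a median of -0.03. Of these 12, 2 fell and 2 rose, beside 24.2% and 24.5% of all tested genes. *Non1* (FBgn0028473, 2R, 9396265 to 9398734), a nucleolar GTPase of the early large subunit and by TPM the most abundant of the 43, rose, with 798.4 and 842.4 CPM in the enhancer mutant, against 655.3 and 698.6 CPM in wild-type. *ppan* (FBgn0010770, 3R, 21116254 to 21117899), related to the yeast assembly factor Ssf1, had 81.1 and 83.7 CPM in the enhancer mutant, against 65.2 and 65.6 CPM in wild-type. Replicates of *ppan* were nearly equal, and its log2 fold change of 0.33 (SE 0.0912, adjusted p = 0.0116, edgeR quasi-likelihood test, Benjamini-Hochberg adjusted) was the highest of the 43. That of *Non1* was 0.28 (SE 0.0979, adjusted p = 0.0370, the same edgeR test with Benjamini-Hochberg adjustment). Both rises depend on the scale, and the median log2 ratio of mean TPM was -0.44 over all tested genes. Relative to the median of all tested genes, *ppan* stood at 0.338 on TMM counts and 0.329 in TPM, and *Non1* at 0.281 and 0.271. In TPM, *Non1* had 312.2 and 297.9 in the enhancer mutant, against 324.1 and 360.9 in wild-type, and in limma on log2(TPM + 1), *ppan* was at -0.11 and *Non1* at -0.16, neither past the threshold.

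Among the large subunit factors that fell, *Nnp-1*, related to yeast Rrp1, had 122.7 and 119.3 CPM in the enhancer mutant, against 144.3 and 143.2 CPM in wild-type, and *Nmd3*, the adapter for export of the large subunit, had 119.6 and 128.0 CPM in the enhancer mutant, against 144.5 and 148.7 CPM in wild-type. Both had their genotypes apart, with log2 fold changes of -0.25 and -0.24 and adjusted p of 0.0389 and 0.0465 by edgeR quasi-likelihood test, Benjamini-Hochberg adjusted. *Nle*, named Notchless for its genetic interaction with *Notch* and known in yeast as the assembly factor Rsa4, had 60.6 and 64.4 CPM in the enhancer mutant, against 70.1 and 76.6 CPM in wild-type. The genotypes of *Nle* were apart as well, but its change of -0.23 missed the threshold (adjusted p = 0.0675, the same edgeR test with Benjamini-Hochberg adjustment). The nucleostemin family GTPases *Ns1*, *Ns2* and *Ns3*, the helicases *pit* and *Dbp73D*, and the assembly factors *Non3* and *Surf6* had log2 fold changes between -0.15 and 0.14, none past the threshold.

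Of the 5 other nucleolar genes, 2 fell and the others did not pass the test, where 24.2% of all tested genes fell. *mbm* (FBgn0086912, 2L, 271912 to 273715), mushroom body miniature, a nucleolar protein needed for the growth of neural stem cells, had 50.7 and 53.3 CPM in the enhancer mutant, against 66.4 and 77.2 CPM in wild-type. *Noa36*, a zinc finger protein of the nucleolus, had 38.9 and 39.9 CPM in the enhancer mutant, against 51.6 and 51.3 CPM in wild-type. The libraries of both genes were well separated by genotype, with log2 fold changes of -0.46 and -0.39. *nclb* (log2 fold change -0.11), related to yeast Pwp1, and *vito* (0.07), related to human NOL12, had overlapping libraries, and *l(2)34Fd* (-0.14) had its libraries apart by little.

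The exosome subunits were the role with the lowest median, at -0.35 on the log2 scale, and 5 of the 9 fell. All 9 had a fold change below 0, and for 7 of them both enhancer mutant libraries were under both wild-type ones. Of all tested genes, 24.2% fell, 50.3% had a change below 0 and 37.9% had both enhancer mutant libraries the lower ones. The exosome is built of a ring of RNase PH-like proteins, a cap of RNA-binding proteins and 2 nucleases. Of the cap, *Rrp4* (FBgn0034879, 2R, 23555018 to 23556217) had 34.3 and 38.6 CPM in the enhancer mutant, against 49.5 and 48.6 CPM in wild-type, a log2 fold change of -0.43 (SE 0.0953, adjusted p = 0.00382, edgeR quasi-likelihood test, Benjamini-Hochberg adjusted). *Rrp40* had 29.6 and 29.3 CPM in the enhancer mutant, against 34.3 and 41.8 CPM in wild-type. The third cap protein, *Csl4*, had 28.8 and 32.5 CPM in the enhancer mutant, against 29.7 and 33.3 CPM in wild-type. *Rrp4* and *Rrp40* fell, and *Csl4* had overlapping libraries and a change of -0.04, with 95% intervals that overlap those of *Rrp4* and *Rrp40*, and the difference between the subunits was not tested.

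Of the ring, *Ski6* (Rrp41), *Rrp42* and *Mtr3* fell by 0.38, 0.35 and 0.35 on the log2 scale. *Mtr3* had 31.0 and 30.0 CPM in the enhancer mutant, against 39.1 and 38.5 CPM in wild-type, and *Rrp42* had 15.3 and 16.6 CPM in the enhancer mutant, against 19.8 and 20.8 CPM in wild-type. *Ski6* had 23.8 and 25.7 CPM in the enhancer mutant, against 29.2 and 35.3 CPM in wild-type. Each of these 3 genes had its genotypes apart. *Rrp46* had 21.8 and 25.1 CPM in the enhancer mutant, against 28.5 and 25.5 CPM in wild-type, and although both enhancer mutant libraries were the lower ones, its change of -0.21 did not pass the test. The remaining ring subunit, *Rrp45*, is not one of the 43 genes, and with 24.0 and 28.1 CPM in the enhancer mutant, against 39.7 and 38.7 CPM in wild-type, it was differentially expressed (log2 fold change -0.59).

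The nucleases did not pass the test. *Dis3*, which carries both exonuclease and endonuclease activity, had 100.6 and 93.3 CPM in the enhancer mutant, against 106.0 and 118.1 CPM in wild-type, and *Rrp6*, the nuclear exonuclease, had 50.0 and 48.3 CPM in the enhancer mutant, against 57.6 and 48.5 CPM in wild-type. The genotypes were apart for *Dis3* and overlapped for *Rrp6*. *Dis3* also had a small share of its counts on the transcript with the longer 3′ UTR, 4.49% and 5.44% in the enhancer mutant, against 9.88% and 13.7% in wild-type. The added end of that transcript overlaps *CG6432*, whose own estimated counts were 0 and 1 in the enhancer mutant and 12 and 10 in wild-type, so reads of the pair cannot be told apart there. The count of exosome genes that fell was unstable: it was 5 here, 1 by DESeq2 and 8 with library sizes alone. The count was also lower when either enhancer mutant library was left out, and higher without wild-type replicate 1. Each of these settings leaves 1 library in a genotype.

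**Figure D3:**
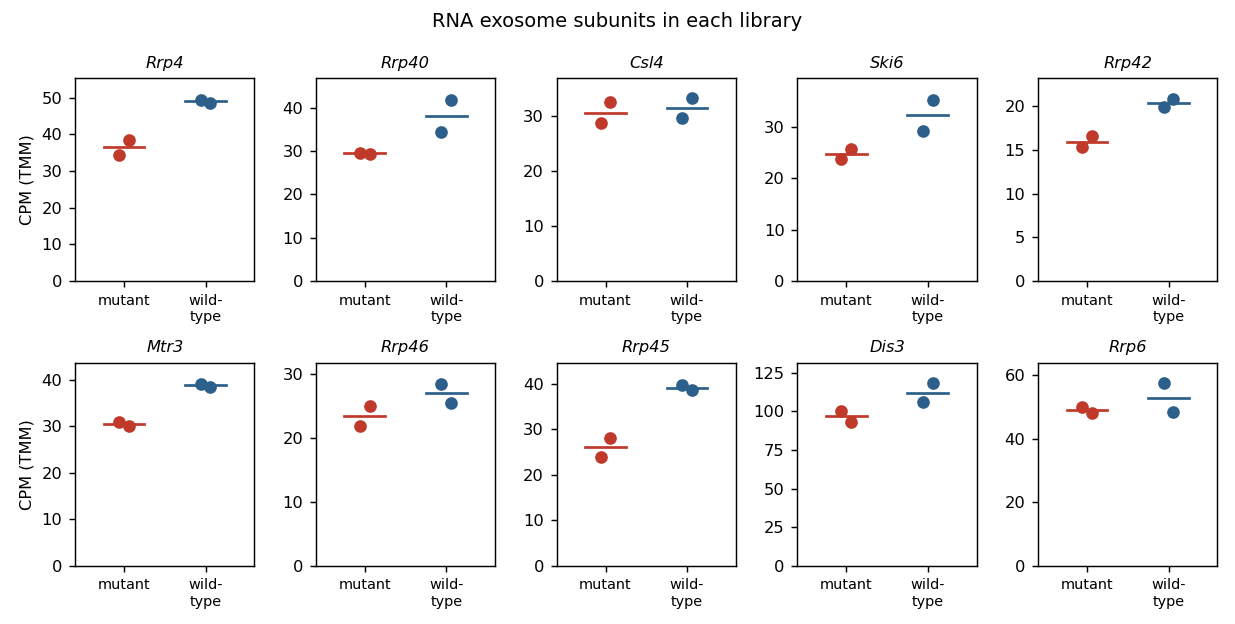
CPM of the 9 exosome genes and of *Rrp45*, with enhancer mutant libraries in red on the left and wild-type libraries in blue on the right of each panel, and lines at the means. The genotypes are apart, with the enhancer mutant lower, for *Rrp4*, *Rrp40*, *Ski6*, *Rrp42*, *Mtr3*, *Rrp46*, *Rrp45* and *Dis3*, and overlap for *Csl4* and *Rrp6*.

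Some of these genes share exonic sequence with a neighbour, and the strand of the libraries is not given in the sources used here. In the annotation, 20 of the 43 genes had exons overlapping another gene. The overlap was longest for 2 of them: *Rrp40* overlaps *Eno* on the opposite strand over 362 bp (35.1% of its exons), and FBgn0010926 overlaps *P5cr-2* over 1265 bp (29.3%). The enolase gene *Eno* had 12501 and 11256 estimated counts in the enhancer mutant and 8324 and 7881 in wild-type, far above those of *Rrp40*, so the values of *Rrp40* are uncertain. Shorter overlaps included *kz* with *pcx* (188 bp, 4.79% of its exons) and *l(1)G0020* with *CG1785* (234 bp, 7.2%), on opposite strands. *pcx* had 5455 and 3702 estimated counts in the enhancer mutant and 6787 and 4315 in wild-type. *CG1785* had 2741 and 2368 in the enhancer mutant and 1707 and 1544 in wild-type. The part of shared reads in *kz* and *l(1)G0020* was not tested. The paralogs *nop5* and *Nop56* are separate entries in the index, and their values assume that reads were divided correctly.

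The 43 genes lie on all major chromosome arms, with 10 on 2L, 10 on 2R, 6 on 3L, 13 on 3R and 4 on X. Of the 4 X-linked genes, *kz* lay 892.8 kb, *Nmd3* 950.2 kb and *Ns3* 1671 kb below *Notch*, and *l(1)G0020* lay 5544 kb above it. Their log2 fold changes were -0.44 for *kz*, -0.24 for *Nmd3*, -0.01 for *Ns3* and -0.43 for *l(1)G0020*, within the range of the autosomal genes. Of these, *kz*, *Nmd3* and *l(1)G0020* fell and *Ns3* did not pass the test, where 24.2% of all tested genes fell. The part of the distance to *Notch* in these values was not tested.

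How far these genes were lower depended on the scale. Summed over the 43 genes, CPM were 4904 and 5073 in the enhancer mutant and 5154 and 5399 in wild-type, while TPM, which are not corrected by TMM, were 2421 and 2317 in the enhancer mutant and 3234 and 3538 in wild-type. On the TPM scale all 43 genes were lower in the enhancer mutant without overlap between genotypes, but so were 71% of all tested genes, while 0 of the 43 and 11.1% of all tested genes were higher in both. The median log2 ratio of mean TPM was -0.58 for the 43 genes, beside -0.44 for all tested genes. Relative to the median of all genes, the same 34 genes were lower and the same 9 higher on both scales. Cytosolic ribosomal protein genes held 49.8% and 51.6% of all TPM in the enhancer mutant, against 43.8% and 42.5% in wild-type, which moves with this difference between scales, and the part of these RNAs in the TPM values of the 43 genes was not tested.

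**Figure D4:**
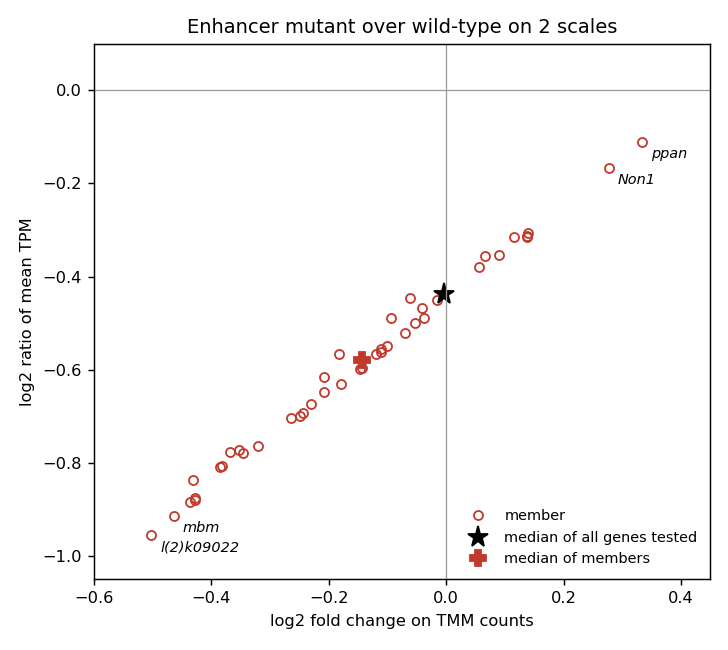
Log2 fold change on TMM-scaled counts (x axis) against the log2 ratio of mean TPM (y axis), enhancer mutant over wild-type, for the 43 genes (circles), with the medians of the 43 genes (cross) and of all tested genes (star). Every circle lies below 0 on the TPM axis, as does the median of all tested genes at -0.44, while 9 circles lie above 0 on the count axis.

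Other gene lists of the same pathway gave a like median for assembly factors and a median of the opposite sign for the ribosome itself. Of 33 other ribosome biogenesis genes, 2 were differentially expressed and lower and 0 were higher, with a median of -0.15. The 2 were *Rrp45* and the snoRNP assembly factor *Nop17l* (log2 fold change -0.52). Of all tested genes, 15.3% were called lower and 12.6% higher. By the adjusted p alone, 7 of the 33 fell and 2 rose, beside 24.2% and 24.5% of all tested genes. The 2 lower calls became 1 without enhancer mutant replicate 1, without enhancer mutant replicate 2, without a filter on low counts or at 1.5-fold, 5 with library sizes alone and 17 in limma on log2(TPM + 1). In place of 0, 1 gene was called higher by DESeq2, with the replicate number as a block, without the filter and without wild-type replicate 1. The 4 subunits of RNA polymerase I among them had log2 fold changes between -0.26 and -0.12, none past the threshold. The 3 nucleolar genes of the list lay between 0.19 and 0.49, with both enhancer mutant libraries above both wild-type ones in CPM. Of these 3, 1 rose. Of 82 tested cytosolic ribosomal protein genes, 49 were called higher and 1 lower, with a median of 0.57. *RpLP2*, a stalk protein of the large subunit, rose most among those called, with 3626 and 4224 CPM in the enhancer mutant, against 1890 and 1785 CPM in wild-type. The lower one, *RpS5b*, a paralog known from the germline, had 0.502 and 0.610 CPM in the enhancer mutant, against 1.76 and 2.28 CPM in wild-type.

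Of 73 mitochondrial ribosomal protein genes, 2 were called higher and 1 lower, with a median of 0.16. Of 18 aminoacyl-tRNA synthetase genes, 0 were called higher and 1 lower, with a median of -0.04. Over all tested genes, 12.6% were called higher and 15.3% lower. The mitochondrial calls became 4 higher without wild-type replicate 2, 1 higher without enhancer mutant replicate 2, 3 lower without wild-type replicate 1, and 0 higher and 12 lower in limma on log2(TPM + 1). The called genes with the largest changes were *mRpS33* (log2 fold change 0.79), *mRpL49* (-0.98) and *LysRS* (-0.59). With library sizes alone in place of TMM, the called cytosolic ribosomal protein genes numbered 21 higher and 1 lower, and in limma on log2(TPM + 1) 7 higher and 2 lower. The medians of the assembly factor lists and of the cytosolic ribosomal protein list lay on opposite sides of the median of all genes, with members of each list on either side, and the difference between these lists was not tested.

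**Figure D5:**
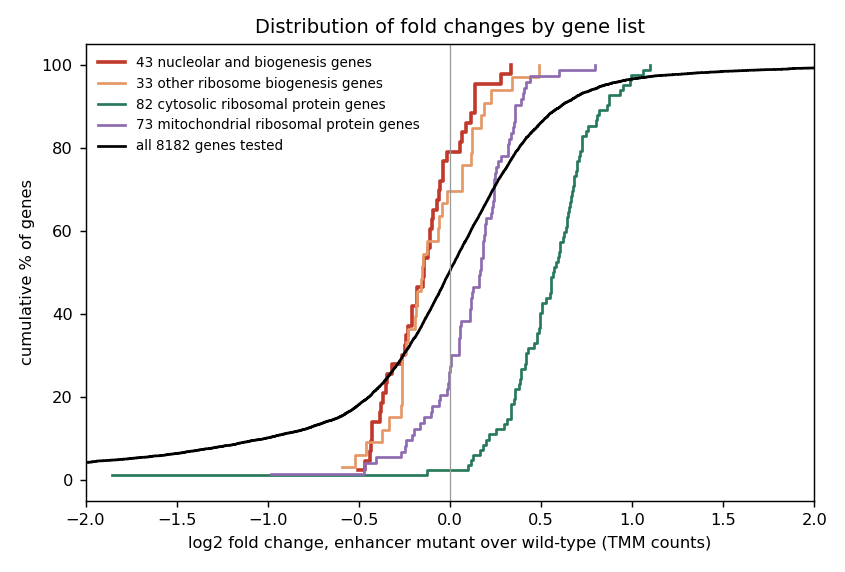
Cumulative share of genes (y axis, percent) by log2 fold change of enhancer mutant over wild-type (x axis, cut at 2 in either direction), for the 43 genes, 33 other ribosome biogenesis genes, 82 cytosolic and 73 mitochondrial ribosomal protein genes and all 8182 genes tested. The curve of the 43 genes is steep and left of the curve of all genes over most of its height, with a median of -0.14, and that of the cytosolic ribosomal protein genes lies to the right, with a median of 0.57.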

How the data were processed

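Total RNA libraries of S2R+ cells (2 enhancer mutant, 2 wild-type) were sequenced as paired-end reads of 150 bp. The authors quantified transcripts with Salmon 0.10.2 (version from the submitters' processing notes) on an index of the dm6 transcriptome, with mapping validation and a correction for GC bias. For each transcript and library they deposited an estimated count, which is not normalized, and a TPM value corrected for effective length. Here, 29850 of 30070 transcripts matched the Ensembl annotation in dm6 coordinates. The 220 without a match took 0.2303% to 0.2924% of a library. Estimated counts and TPM values were summed per gene, and the counts rounded.

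Genes kept by filterByExpr were tested with edgeR 4.0.16 (TMM factors 0.9451 and 0.9241 for the enhancer mutant, 1.0577 and 1.0825 for wild-type; glmQLFit and glmQLFTest) in R 4.3.3, with a common biological coefficient of variation of 0.0849. Standard errors were computed as the size of the log2 fold change over the root of its F value, and intervals use the degrees of freedom of the test. Log2 CPM correlated at 0.9946 between enhancer mutant replicates and 0.992 between wild-type replicates. All 43 genes are named. Values in every library were planned for the called gene, the 3 genes with the highest mean TPM (*Non1*, *Nop56* and *Fib*), the Myc network and the called genes with the largest rise or fall of each other list. Further values per library, and *Nop17l*, were chosen after their values were seen. Alternatives were DESeq2 1.42.0, limma 3.58.1 on log2(TPM + 1), other factors and filters, an offset for effective length, thinning to the smallest library, a block for the replicate number, omission of each library and other call rules. Each test was checked on simulated counts. The members and lists were chosen with earlier results of these data known. *CG4038*, *CG7637*, *Ltv1* and *nos* were listed but not analysed here.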

Additional observations from a re-analysis of the deposited data

How the results depend on the processing

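The number of the 43 genes called lower was 12 with library sizes alone, 0 without a filter on low counts, 0 by DESeq2, 0 at 1.5-fold, 15 on the adjusted p alone (2 higher, 17 in all) and 27 in limma on log2(TPM + 1), and it ran from 1 to 4 with a library left out. Which gene was called changed: it was *Rrp4* without enhancer mutant replicate 2, and *Ski6*, *mbm*, *Rrp40* and *wcd* without wild-type replicate 1. *l(2)k09022* stood at -0.46 without the filter, -0.49 by DESeq2, -0.37 (adjusted p = 0.114, edgeR) without enhancer mutant replicate 2 and -0.37 without wild-type replicate 1. Repeats of the count by adjusted p alone under the other settings were added after the data were seen. In them the 15 falls became 31 with library sizes alone, 9 by DESeq2, 40 in limma on log2(TPM + 1), and 3 to 14 with a library left out (3 without either enhancer mutant library, 8 without wild-type replicate 2). The 2 rises became 1 with upper quartile factors, 0 with library sizes alone, 1 with at least 10 counts in every library, 0 in limma on log2(TPM + 1) and 0 to 2 with a library left out. The cause was not tested.

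The median log2 fold change of the 43 genes, -0.1436, was -0.1772 with upper quartile factors, -0.3385 with library sizes alone, -0.1017 without the filter, -0.1662 with at least 10 counts in every library, -0.1272 by DESeq2, -0.1779 after thinning, -0.5491 in limma on log2(TPM + 1), and -0.1749 to -0.09595 with a library left out. It kept its sign in each. The median of all tested genes moved down with it in 2 settings, to -0.199 with library sizes alone and -0.38 in limma on log2(TPM + 1). It stayed near 0 after thinning (-0.00404) and with at least 10 counts in every library (-0.00293). Without the filter it was -0.061, and the median of the 43 genes minus that of all tested genes was -0.0407, against -0.14 in the main fit. Genome-wide, library sizes alone gave 1984 lower and 560 higher genes, the adjusted p alone 1983 and 2001 (3984 in all) and limma on log2(TPM + 1) 2825 and 246, so that 78% and 92% of calls were lower with the first and the last, against 54.9% with TMM.

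With the replicate number as a block, 1 of the 43 genes was called, 17 had an adjusted p below 0.05 and were lower, the median was -0.1431, and 2276 genes were called genome-wide. Same-numbered libraries correlated in their deviations at 0.168 over all tested genes and at 0.406 among the 4643 more abundant ones (mean log2 CPM 5 or above). With 2 pairs and no shared origin in the labels, whether the numbers pair the libraries cannot be told. With a library left out, the lone library of its genotype is assumed to vary like the others. With 2 libraries a genotype and 364 to 22283 counts a gene, changes of around 0.2 on the log2 scale mostly missed the threshold.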
